A study of Mus musculus with 9 samples.

Results

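The interferon regulatory factor genes examined here were Irf1, Irf2, Irf3, Irf4, Irf5, Irf7, Irf8 and Irf9, taken by name from the mm9 gene annotation, so that 8 of 22380 protein-coding genes were described. For each gene, all H3K27ac islands that touched a window from its end to 50 kb upstream of its transcription start site (TSS, the most upstream annotated start) were collected. H3K27ac, acetylation of histone H3 at lysine 27, marks enhancers and promoters in use, and an island is a stretch of the genome called as enriched for it. The mark was profiled by ChIP-seq with an anti-H3K27ac antibody in naive CD8+ T cells that were sorted as GFP+ TCRβ+ CD62Lhi CD44lo-med CD8+ from mouse spleen. All mice carried hCD2-Cre and a Rosa26 GFP reporter. WT cells (4 samples) had intact Tcf7 and Lef1 genes, and dKO cells (3 samples) were from mice with floxed alleles of both, that is Tcf7 fl/fl and Lef1 fl/fl, with 1 input sample for each genotype. Tcf7 and Lef1 encode the transcription factors Tcf1 and Lef1. The controls thus shared the transgene and the reporter, all mice were on the C57BL/6 background and 6 to 12 weeks of age, and the labels name no treatment. The hCD2-Cre transgene acts in mature T cells, and sorting on GFP selects cells in which Cre was active because excision is not complete in every cell.

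Interferon regulatory factors share a DNA-binding domain that recognizes repeats of GAAA, as found in the interferon-stimulated response element (ISRE). Some are latent in the cytoplasm until kinases activate them after a virus is sensed, others are made on demand after interferon or antigen receptor signals, and Irf2 mostly opposes Irf1. In CD8+ T cells, Irf1 and Irf2 are known for their part in the development of the lineage and in interferon responses, and Irf4 is known for tuning expansion and effector differentiation to the strength of the T cell receptor signal.

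The deposited values were one list of islands and their read counts per genotype, called after the replicates were pooled. The WT list held 65563 islands with 82668007 counts and the dKO list held 82213 islands with 57665047 counts. Values for single replicates were not used here, so that none of the differences was tested against the spread between samples, and the 95% Wilson intervals cover counting error only. Counts were divided by the total of their list and multiplied by 1000000, which gives scaled counts. Counts per kb are counts per kb covered by islands, and ratios are log2 of dKO to WT. As a check of the labelled cell type, all 5 T cell and CD8 markers (Cd3d, Cd3e, Cd3g, Cd8a and Cd8b1) had an island within 1 kb of a TSS in both lists, at 4.41 to 5.02 scaled counts per kb in WT and 4.40 to 4.47 in dKO. These markers were not separate checks, since Cd3d, Cd3e and Cd3g shared the same joined islands and values, and so did Cd8a with Cd8b1. Islands at markers of other cells were also called. For 4 of 5 B cell markers they stood at 1.30 to 3.69 in WT and at up to 3.37 in dKO. For myeloid and dendritic cell markers they stood at 1.46 to 2.66 in WT, where 5 of 6 had one, and at up to 2.49 in dKO, where 4 did. Both CD4 markers (Cd4 and Zbtb7b) had one, at up to 2.28 in WT and 2.03 in dKO, and of the NK cell markers Klrb1c had one, at 3.62 in WT and 3.57 in dKO. Pax5, Ncr1 and Siglech had no island near a TSS in either list. The part of other cells in the values below was not tested.

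H3K27ac islands lay over the TSS of all 8 genes in both lists, whereas 59.4% of protein-coding genes had such an island. The sequences of 3 of these promoters are shown for mm9, each as the 250 bases before the TSS, 5′ to 3′ on the strand of the gene. Irf1 and Irf4 are shown because they had the highest and the lowest count ratio, and Irf2 because its sequence was the only one with an ISRE. Capitals mark matches to the motifs described next. The Irf1 bases are at chr11:53583266-53583515, the Irf2 bases at chr8:47824849-47825098 and the Irf4 bases at chr13:30840845-30841094, all on the plus strand.
Irf1: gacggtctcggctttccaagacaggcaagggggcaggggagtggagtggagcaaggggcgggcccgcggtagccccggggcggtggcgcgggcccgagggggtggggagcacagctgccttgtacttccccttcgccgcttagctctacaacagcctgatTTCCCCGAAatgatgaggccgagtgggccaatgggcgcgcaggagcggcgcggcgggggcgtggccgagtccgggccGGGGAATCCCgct
Irf2: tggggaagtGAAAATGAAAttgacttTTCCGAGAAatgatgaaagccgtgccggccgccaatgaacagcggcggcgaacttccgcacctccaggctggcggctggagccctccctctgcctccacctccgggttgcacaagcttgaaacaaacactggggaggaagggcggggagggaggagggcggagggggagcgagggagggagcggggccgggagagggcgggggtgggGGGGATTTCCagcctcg
Irf4: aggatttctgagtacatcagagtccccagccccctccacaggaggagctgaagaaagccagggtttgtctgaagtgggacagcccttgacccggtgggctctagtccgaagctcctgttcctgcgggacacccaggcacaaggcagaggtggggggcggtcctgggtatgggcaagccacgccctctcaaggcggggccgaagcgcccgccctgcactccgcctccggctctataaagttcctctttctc

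Motifs were searched by letter on both strands of these 250 bases. An ISRE was taken as 2 copies of GAAA separated by 2 bases, a gamma-activated site (GAS, an element of interferon gamma responses) as TTCNNNGAA, a Tcf/Lef core as CTTTGA or CTTTGT, and an NF-kB site by its consensus. Among 22375 promoters of the same length, 3.37% held an ISRE, 6.83% a GAS, 26.3% a Tcf/Lef core and 7.68% the NF-kB consensus. Irf1 held a GAS from 90 to 82 bases before the TSS and an NF-kB match from 13 to 4 bases before it. Irf2 held the ISRE from 241 to 232, a GAS from 224 to 216 and an NF-kB match from 17 to 8 bases before the TSS. Irf8 held a GAS at 171 to 163 and another at 153 to 145 bases before the TSS, and Irf7 held the single Tcf/Lef core of the group, on the strand opposite to the gene, at 161 to 156. No match was found in Irf3, Irf4, Irf5 or Irf9. None of the matches overlapped another motif searched.

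The Irf windows held 47 islands in WT and 66 in dKO, a ratio of 1.40, beside 1.254 over the complete lists. In dKO cells, 6 genes had more islands, Irf3 had fewer and Irf1 had the same number. By scaled counts, the genes had a median log2 ratio of -0.09, with 4 genes higher and 4 lower in dKO. The windows of all protein-coding genes with islands in WT and dKO alike had a median of -0.03 and a range from -0.90 to 0.98 between their 5th and 95th percentiles. Only Irf1 passed 1.5-fold by counts, as the 1 of 8 that was higher in dKO, and none was lower, whereas 11.5% of 16487 gene windows were at least 1.5-fold higher and 11.5% were at least 1.5-fold lower. By counts per kb, none of the 8 genes passed 1.5-fold in either direction, beside a background of 0.425% higher and 9.28% lower. The median log2 ratio of counts per kb was -0.05 over the 8 genes and -0.16 over all windows. The share of Irf genes called was thus near the background by both measures. In lists made from pools of many cells, fewer cells with the mark and less of it per cell cannot be told apart.

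**Figure D1:**
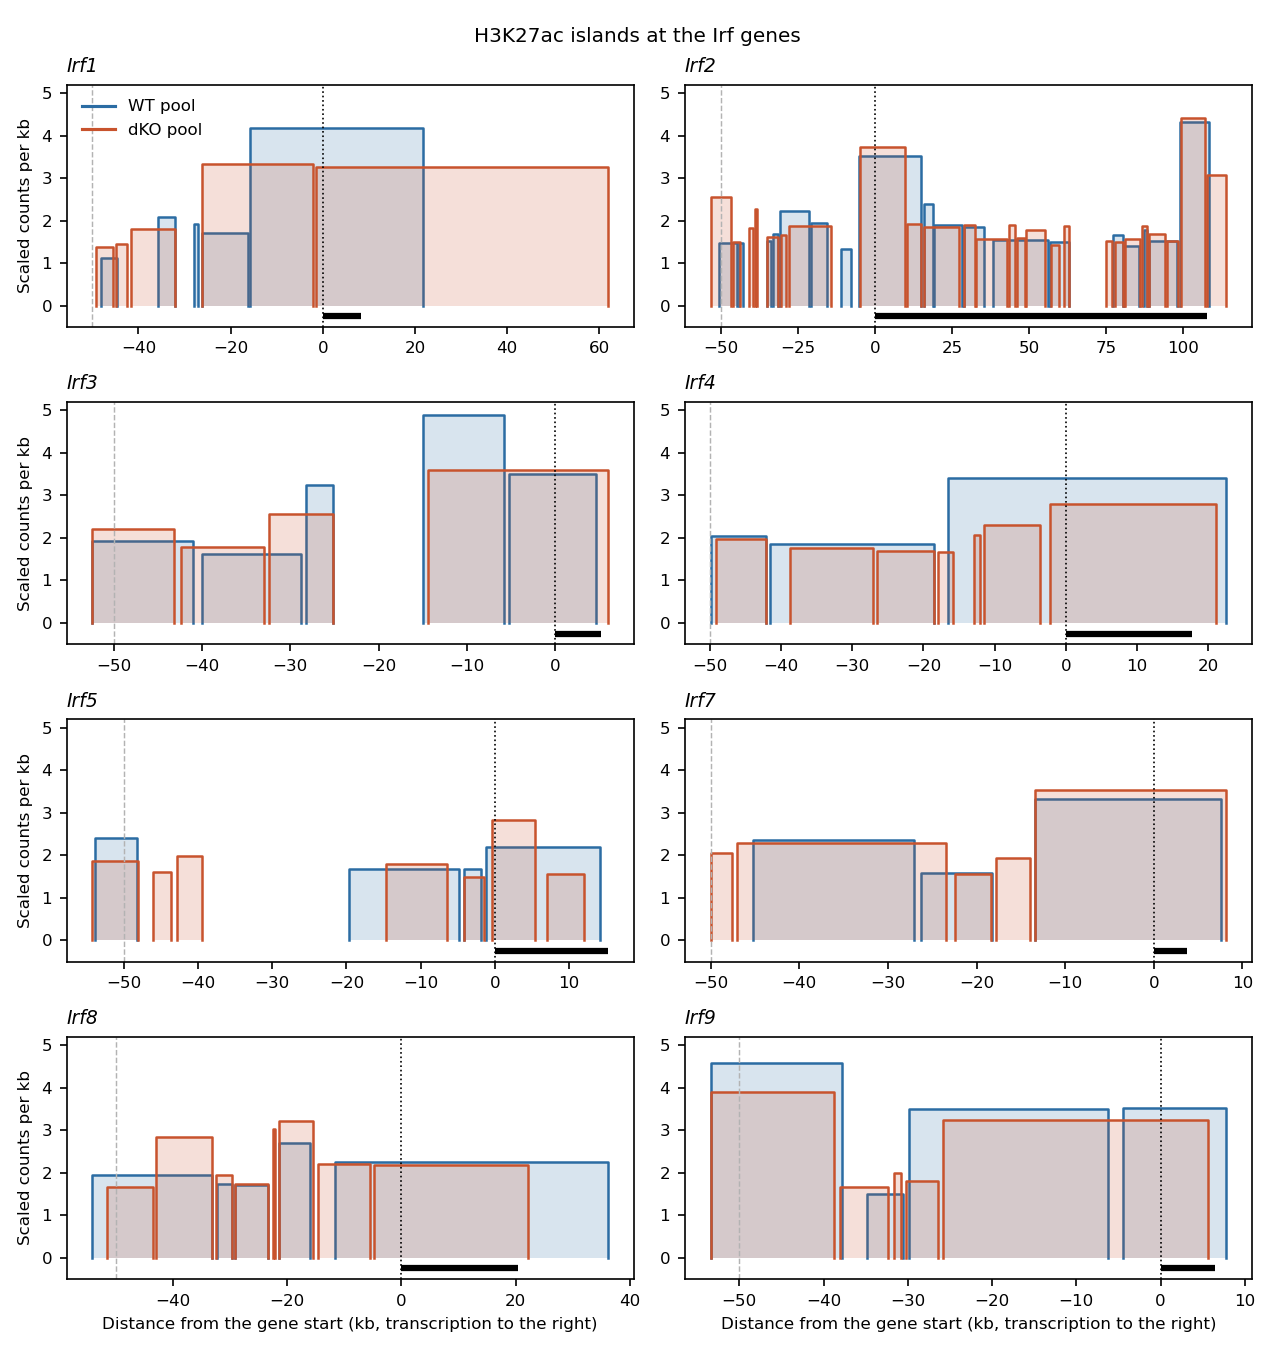
Each panel plots the islands of 1 gene against the distance from its TSS in kb, with transcription to the right, and their height is the scaled counts per kb in the WT (blue) and dKO (orange) pool. The black bar is the gene body, the dotted line the TSS and the dashed line 50 kb upstream. The island over the Irf4 TSS was narrower in dKO (23.4 kb) than in WT (39.0 kb), and that over the Irf1 TSS was wider (63.4 against 37.4 kb).

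Irf1, the interferon-induced activator of antiviral and antigen presentation genes, lies at chr11:53583516-53591876. In WT its window held 5 islands of 55.2 kb with 15355 counts, and in dKO 5 islands of 103.0 kb with 18039 counts. Scaled counts were thus 185.7 in WT and 312.8 in dKO, a log2 ratio of 0.75 (0.72 to 0.78), above that of 92.2% of gene windows. The larger dKO sum went with a larger covered width (log2 ratio of 0.90), and counts per kb had a log2 ratio of -0.15. The dKO island over the TSS, chr11:53582001-53645400, ran 53.5 kb past the end of the gene, and the WT island, chr11:53567801-53605200, ran 13.3 kb past it. Island borders also differed upstream of the gene. An island from 26.1 to 2.1 kb before the TSS stood at 3.34 scaled counts per kb in dKO. Over that stretch, WT had an island at 1.70 from 26.3 to 16.3 kb before the TSS. The WT TSS island, at 4.17, followed from 15.7 kb before it. When only the parts of islands inside the window were counted, the log2 ratio was 0.09, and over bases covered in both lists it was -0.05. Without islands at promoters of other genes, it was 1.76 by counts and 0.74 by counts per kb, both past 1.5-fold. This leaves out the TSS islands of both lists, which start at different places. The WT one takes with it the bases from 15.7 kb before the TSS, whereas dKO keeps its island from 26.1 to 2.1 kb before it. These values thus set unlike stretches side by side. Islands that also touched the promoters of Gm17334, inside the gene, and of its neighbours Gm11006 or Il5 held 83.9% of the WT and 67.7% of the dKO window counts, so these cannot be assigned to Irf1 alone.

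Irf2, which binds the same element as Irf1 and mostly represses from it, spans chr8:47825099-47932812. It had the most islands of the 8 genes, in the longest window (157.7 kb). That window held 21621 counts in 18 islands in WT and 15883 counts in 25 islands in dKO. The log2 ratio of counts was 0.07 (0.05 to 0.10), that of counts per kb was 0.02, and no promoter of another gene lay in its islands. The densest island of the window was not at the TSS but over the 3′ end of the gene. It stood at 4.31 scaled counts per kb over 9.4 kb in WT and at 4.42 over 8.0 kb in dKO, beside 3.52 and 3.74 in the TSS islands. In dKO, a further island of 6.2 kb at 3.07 scaled counts per kb started inside the last bases of the gene and ran past its end.

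Irf3 and Irf7 are the factors that switch on the type I interferon genes after nucleic acids are sensed. Irf3 (chr7:52253018-52258218), which most cells hold ready-made, had 10680 counts in WT and 7456 in dKO, or 129.2 and 129.3 scaled counts. Its log2 ratio of 0.00 (-0.04 to 0.04) was the only one whose counting interval included 0. At the Irf3 locus, WT had one island of 9.2 kb at 4.90 scaled counts per kb over the promoter of Prmt1 and a separate one of 9.8 kb at 3.50 over the TSS of Irf3, while dKO had a single island of 20.4 kb at 3.60 over both. Irf7 (chr7:148448605-148452380, minus strand), which interferon induces strongly, had 10396 counts in WT and 8576 in dKO. The log2 ratio of its counts was 0.24 (0.20 to 0.28), and that of counts per kb 0.01. Both Irf3 and Irf7 sit among close neighbours, and islands at other promoters, such as Bcl2l12 and Prmt1 at Irf3 and Phrf1, Cdhr5 and Sct at Irf7, held 56.8% to 87.5% of their window counts.

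Irf4, the factor induced by antigen receptor signals, had the lowest ratio of the 8 genes. Its window around chr13:30841095-30858796 held islands of 69.8 kb with 15830 counts in WT, and of 60.6 kb with 7858 counts in dKO, or 191.5 and 136.3 scaled counts. The log2 ratio was -0.49 (-0.53 to -0.45) by counts, -0.20 by width and -0.29 by counts per kb, so that both parts of the count were lower in dKO. In WT, 3 islands covered 96.0% of the window, and in dKO 7 islands covered 84.5% of it. A single WT island of 10964 counts, chr13:30824601-30863600, reached from 16.5 kb upstream of the TSS to 22.5 kb after it. Over the same 39.0 kb, dKO had 4 islands that left 6.4 kb uncovered, and the one over the TSS, chr13:30838801-30862200, held 3783 counts. These WT and dKO islands stood at 3.40 and 2.80 scaled counts per kb. No promoter of another gene lay in the Irf4 islands. The ratio stayed negative under all 10 other ways of counting the window, from -1.02 to -0.27 by counts and from -0.35 to -0.21 by counts per kb. Some of these could hardly change the sign. Leaving out islands at other promoters removed nothing here, and other scalings shifted all ratios by 0.07. Lower values were common among all genes, and 15.2% of windows had a lower count ratio than Irf4 and 31.5% a lower ratio of counts per kb.

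Irf8, a partner of PU.1 that is best known from B cells, monocytes and dendritic cells, had the widest TSS island in WT. Its window around chr8:123260258-123280594 held 14683 counts in 5 islands in WT and 9035 in 8 islands in dKO. Their log2 ratio was -0.18 (-0.22 to -0.14). It stayed negative in 7 of 10 other ways of counting, down to -0.87 over the gene body only, and turned positive in 3. Those were 0.16 with island parts inside the window, 0.09 over bases covered in both lists and 0.48 with islands within 5 kb joined. By counts per kb the log2 ratio was 0.08, the highest of the 8 genes. The WT island over the TSS was 47.8 kb wide and ran 15.8 kb past the gene, and in dKO 3 islands covered 44.4 kb of it, of which 27 kb belonged to the one over the TSS. Upstream, an island of 5.4 kb from 21.5 kb before the TSS stood at 2.69 scaled counts per kb in WT, and one of 6.0 kb from the same start stood at 3.23 in dKO. An island of 9.8 kb from 42.9 kb before the TSS stood at 2.85 in dKO, inside a WT island of 21.0 kb at 1.94.

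Irf5, which acts downstream of Toll-like receptors in myeloid and B cells, had the fewest counts, 6299 in WT and 3764 in dKO, around chr6:29476625-29491869. Counts had a log2 ratio of -0.22 (-0.28 to -0.16) and counts per kb one of -0.05. An island at the promoter of Kcp held 32.5% of the WT window counts, and one at Gm9047 held 17.7% of the dKO counts. Without these 2 islands the log2 ratio was 0.06 by counts and -0.18 by counts per kb, although dKO kept an island inside the span of the WT one at Kcp. The island over the TSS was 15.4 kb wide at 2.203 scaled counts per kb in WT and 5.8 kb wide at 2.83 in dKO, where a second island at 1.57 followed inside the gene. Irf9, the main DNA-binding subunit of the ISGF3 complex, lies at chr14:56222408-56228867 with 16811 counts in WT and 10167 in dKO. Counts had a log2 ratio of -0.21 (-0.24 to -0.17), and counts per kb one of -0.22. Islands that touched other promoters, among them Rnf31 and the proteasome activator genes Psme1 and Psme2, held 75.8% of its window counts in WT and 93.8% in dKO. In dKO, one island of 31.4 kb joined the promoters of Rnf31, Psme1 and Psme2 to that of Irf9, which had an island of its own of 12.2 kb in WT.

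**Figure D2:**
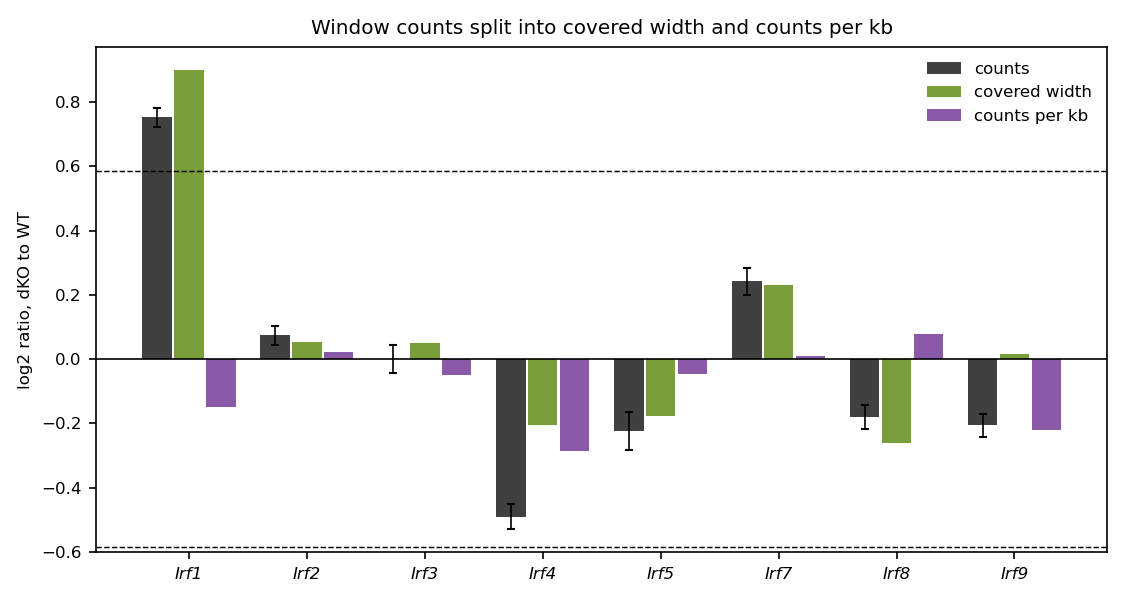
Bars give the log2 ratio of dKO to WT for each gene, by window counts (black, with the 95% counting interval), covered width (green) and counts per kb (purple), and dashed lines mark 1.5-fold. Among black bars, that of Irf1 (0.75) alone is past a dashed line, beside a green bar at 0.90, whereas in Irf4 all 3 bars are below 0.

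The genes were also ordered by the mean density of the whole island over the TSS. Neighbours in the order were compared by their exact Poisson intervals. These islands were 5.8 to 63.4 kb wide and some held other promoters, so the values are not those of the TSS alone. In dKO, the Irf3 island took in the promoter of Prmt1, which had its own island at 4.90 in WT. The dKO island of Irf9 took in Rnf31, Psme1 and Psme2. In WT, Irf1 stood highest at 4.17 scaled counts per kb (4.10 to 4.24). Irf9 at 3.52 followed, without overlap, and then came Irf2 at 3.52, Irf3 at 3.50, Irf4 at 3.40 and Irf7 at 3.33, each with an interval that overlapped that of the gene before it. Irf8 at 2.26 and Irf5 at 2.203 were lowest and overlapped each other. In dKO, Irf2 at 3.74, Irf3 at 3.60 and Irf7 at 3.53 were highest, with overlapping intervals between neighbours. Irf1 at 3.26 (3.21 to 3.32) and Irf9 at 3.24 came next and overlapped each other, then Irf5 at 2.83 and Irf4 at 2.80, which also overlapped. Irf8 was lowest at 2.19. The median TSS island of all genes stood at 3.81 in WT and 3.21 in dKO, so that Irf4, Irf5 and Irf8 were below the median in both lists and Irf1 was above it in both.

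TSS islands of the Irf genes were broad. They were 9.8 to 47.8 kb wide in WT, beside a median of 6.2 kb over all genes, and in dKO all but that of Irf5 were wider than the median of 6.6 kb. The TSS islands of Irf1, Irf3 and Irf9 were at least 1.5-fold wider in dKO and those of Irf4, Irf5 and Irf8 at least 1.5-fold narrower, that is 3 and 3 of 8. Over 12684 genes with a TSS island in both lists, 23.1% were at least 1.5-fold wider in dKO and 18.8% narrower. Among the 3837 genes with WT islands in the same range of widths, 18.7% were wider and 26.4% narrower. None of the 8 TSS islands differed by 1.5-fold in counts per kb. The median log2 ratio of that density was -0.21 over the 12684 genes. The share of them past 1.5-fold was not computed, so the number of Irf genes has no background here.

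Joining overlapping islands of both lists into one region gave both genotypes the same outer borders. Counts still came only from the bases covered in each list. These were 15.4 kb in WT and 10.8 kb in dKO for Irf5, and 39.0 and 34.0 kb for Irf4. In the regions at the promoter, log2 ratios were 0.09 for Irf1, 0.13 for Irf7, -0.06 for Irf8 (0.01 under the other scalings tried), -0.11 for Irf3, -0.15 for Irf2, -0.21 for Irf9, -0.49 for Irf5 and -0.58 for Irf4 by counts. Irf4 came to the edge of 1.5-fold without reaching it. None of the 8 passed it by counts, where 3.61% of 13689 promoter regions were higher and 10.7% lower, nor by counts per kb, where 0.548% were higher and 12.5% lower. By counts per kb, Irf4 had the lowest ratio at -0.39, with 26.4% of genes below it, and Irf7 and Irf1 had the highest at 0.09 and 0.08, with 87.3% and 86.8% of genes below them. The median over all promoter regions was -0.19 by counts per kb. For Irf5, the log2 ratio was -0.51 by covered width and 0.03 by counts per kb. The regions covered from 15.4 kb (Irf5) to 86.8 kb (Irf1) in WT. That of Irf1 also held the promoters of Gm11006 and Gm17334, and that of Irf3 those of Bcl2l12 and Prmt1. Those of Irf7 and Irf9 held other promoters too, among them Phrf1 and Psme1. The values of these 4 genes thus cannot be assigned to the Irf promoter alone.

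**Figure D3:**
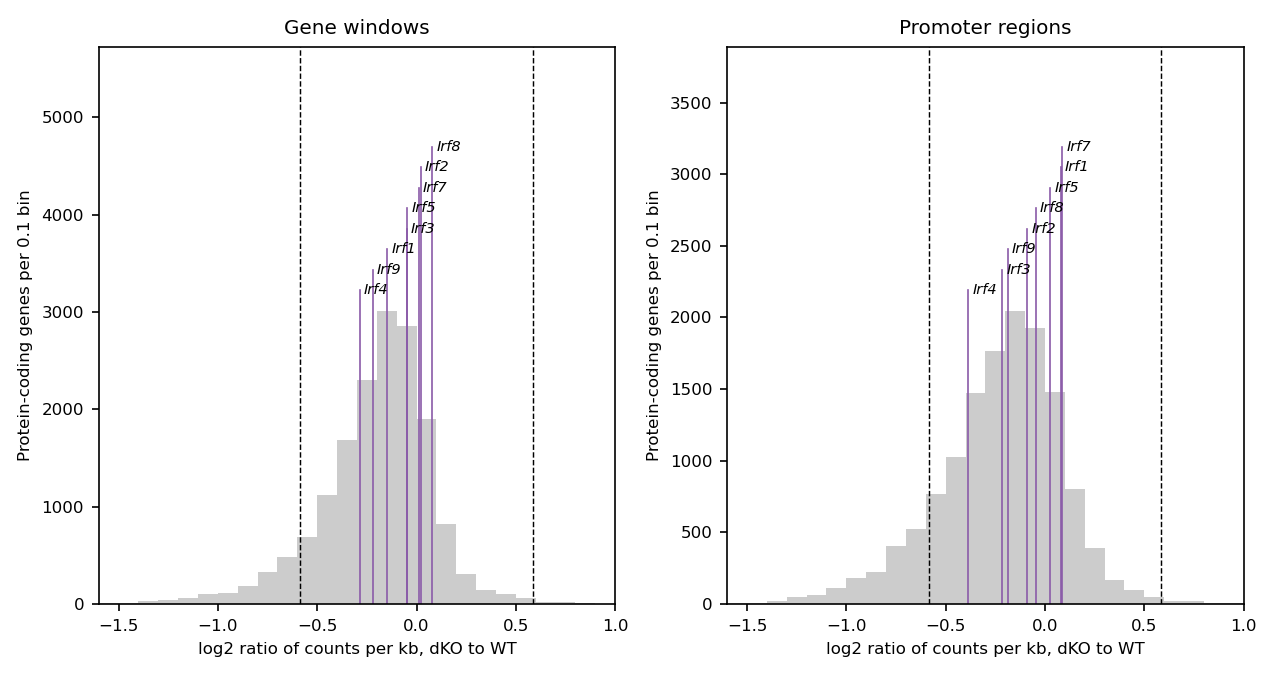
Grey bars count protein-coding genes by the log2 ratio of counts per kb, dKO to WT, in gene windows (left) and promoter regions (right), purple lines place the Irf genes and dashed lines mark 1.5-fold. All 8 genes lie between the dashed lines, with Irf4 lowest in both panels at -0.29 and -0.39.

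Super enhancers (SEs), the clusters of islands with the most H3K27ac, were derived by stitching islands within 12.5 kb and ranking them by counts, which gave 1138 SEs in WT and 973 in dKO. Irf1, Irf4, Irf7, Irf8 and Irf9 lay in an SE in WT, and all genes but Irf5 did in dKO, that is 5 and 7 of 8. Among all protein-coding genes, 20% had their TSS in an SE in WT and 25.7% in dKO, and among those with an island over the TSS 32.2% in WT and 41.4% in dKO. The stitched region of Irf4 ranked 121 in WT and 417 in dKO, and that of Irf1 ranked 355 in WT and 110 in dKO. Irf2 ranked 1256 in WT, outside the SEs, and 538 in dKO. Its WT region was 116.2 kb long and ended before the dense island at the 3′ end of the gene. The dKO region was 269.2 kb long and took in the island there. Irf3 ranked 1168 in WT, also outside the SEs, with a region of 103 kb, and 104 in dKO with one of 474.2 kb. These ranks belong to long regions with other genes in most cases: that of Irf1 was 208.4 kb long in WT but 632.4 kb in dKO, where it took in Il3 and Csf2. The Irf7 region was 137.2 kb long in WT but 741.4 kb in dKO, where it took in several Ifitm genes. The Irf4 region was of like length in the WT (391.6 kb) and dKO (370.6 kb) lists and held Dusp22 in both.

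The other genes of the pathway were described from 6 lists with 68 genes, of which 67 had islands in both lists (Tlr4 had none in either). By window counts, 10 were at least 1.5-fold higher in dKO and 4 lower, with a median log2 ratio of -0.08, beside the background of 11.5% in each direction. By counts per kb, none of the 67 was higher and 4 were lower, with a median of -0.11, beside a background of 0.425% higher and 9.28% lower. The 4 were Myd88, the adaptor of most Toll-like receptors, at -0.67, the kinase gene Chuk at -0.96, Batf3, a partner of Irf4 and Irf8, at -0.96, and the interferon-stimulated gene Ifi35 at -0.69. In all 4, the islands collected in dKO covered more kb than those in WT.

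Upstream of the factors, the 12 sensor and adaptor genes ranged from Tlr7, the sensor of single-stranded RNA on chromosome X, at a log2 count ratio of -1.85, to Tlr9 at 0.25. The counts of Tlr7 were 3592 over 16 kb in WT and 694 over 5.4 kb in dKO. Its log2 ratio was -1.57 by covered width and -0.29 by counts per kb. All 6 kinase genes had a ratio below 0, from Ikbkb at -0.51 to Ikbke at -0.00, which is within the shift of 0.07 that other scalings brought. Their median of -0.38 was the lowest of the 6 lists. None of the 6 passed 1.5-fold by counts. The 4 interferon ligand genes lay between Ifnb1 at -0.34 and Ifna4 at 0.42, on few counts in the case of Ifna4, with 734 in WT and 685 in dKO.

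Downstream, 2 of 8 receptor and JAK-STAT genes were called higher by counts and none lower. The highest was Ifnar2, a subunit of the type I interferon receptor, at 1.86, where counts per kb had a log2 ratio of 0.06 and the covered width one of 1.80. The lowest was Stat2 at -0.54, and its counts per kb were at -0.41. Of 12 DNA-binding and co-repressor partners, 2 were called higher by counts and none lower, from Irf2bp1 at -0.39 to Batf3 at 1.13. Of 25 interferon-stimulated targets, 6 were called higher and 3 lower, from Ciita, the master regulator of MHC class II genes, at -1.09, to Oas2 at 1.89. Oas2 had a ratio of 0.13 by counts per kb and of 1.75 by width, and Ciita had -0.24 and -0.85.

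**Figure D4:**
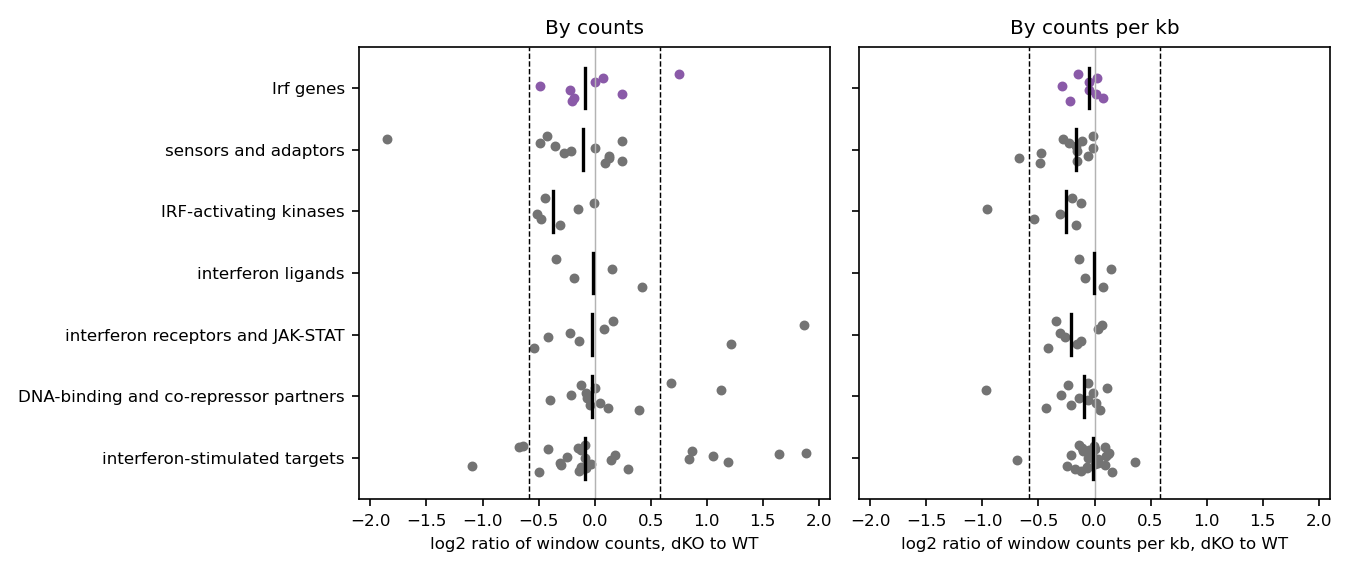
Points are genes, placed by the log2 ratio of window counts (left) or counts per kb (right), dKO to WT, in rows for the Irf genes (purple) and the 6 pathway lists (grey), with black bars for medians and dashed lines at 1.5-fold. Points past 1.5-fold on the higher side in the left panel (10 pathway genes and Irf1) have no counterpart on that side in the right panel.

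The Irf genes also differed in how far their ratios moved with the way islands were counted. Irf4 kept its sign in all 10 alternatives by both measures, though some of these could hardly change it. Irf1, Irf7 and Irf9 kept theirs by counts in 9 of 10. For Irf9, the counts ran from -2.17 to 1.24 and for Irf7 from -1.22 to 1.36, in windows where most counts lay in islands shared with neighbours. The values of -2.17 and -1.22 came from leaving out islands at other promoters, which removed unlike stretches in WT and dKO. Of the genes whose islands held no other promoter, Irf2 moved from -0.06 to 0.26, Irf4 from -1.02 to -0.27 and Irf8 from -0.87 to 0.48. At the promoter, the sign of Irf4 and Irf7 was kept in all 6 alternatives by both measures, but most of these could hardly change it. Other choices of TSS gave both genes the same region and values, and other scalings shifted all ratios by 0.07. Islands paired without merging gave -1.02 by counts and -0.28 by counts per kb for Irf4, but the same values for Irf7.

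**Figure D5:**
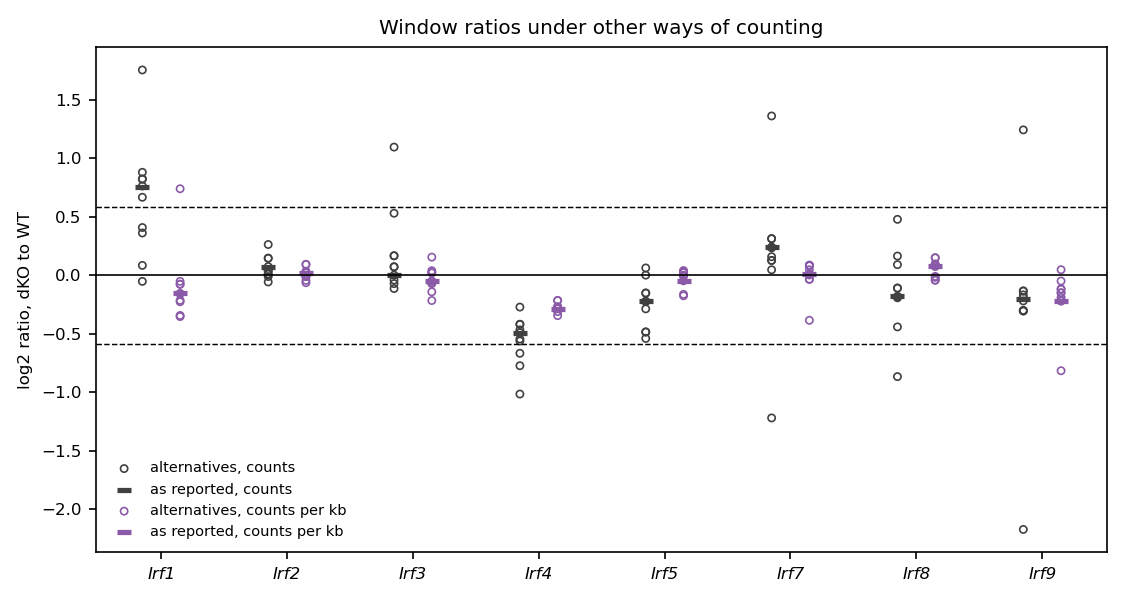
Open circles give the log2 ratio of dKO to WT in each gene's window under other ways of counting, by counts (black) and counts per kb (purple), horizontal marks give the values reported above and dashed lines mark 1.5-fold. The circles of Irf4 all lie below 0, between -1.02 and -0.27 by counts, whereas those of Irf9 run from -2.17 to 1.24.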

How the data were processed

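H3K27ac ChIP-seq reads were checked by the authors with FastQC, aligned to mm9 with Bowtie2 2.2.5 and kept when uniquely mapped with a mapping quality above 10. Replicates of a genotype were pooled, and SICER 1.1 then called islands at an FDR below 0.01, with windows of 200 bp and gaps of 400 bp. Whether duplicates were removed is not stated. The deposited unit is the read count per island, not scaled for depth or width. Bases outside islands carry no value at all, not a 0, and the total of a list is not its sequencing depth. Of 9 samples, the 2 inputs were not analysed.

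Genes came from GENCODE vM1 on NCBIM37, which is mm9, and promoter sequences from that assembly. Starts were converted to count from 1. A whole island was counted where it shared at least 1 bp with a window, so that its parts outside the window are included. Promoter regions merged islands of both lists, within 1 kb of an annotated TSS. Python 3.11.15, numpy 2.4.6 and scipy 1.17.1 were used, with no test across genes, which are not replicates. TSS densities have exact Poisson intervals at 95%. Input was not subtracted for SEs. On simulated counts for 16487 gene windows, 100% of 200 windows that were doubled or halved were recovered by the 1.5-fold call. The simulation held Poisson counting error only, without spread between samples or shifts of island borders. It thus checks the calculation and not how reliable a call is in the real lists.

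All 8 genes are reported with their islands. From the pathway lists, the genes with the largest and smallest count ratio in each list (at least 200 counts) and those past 1.5-fold by counts per kb are named. Some of the neighbours whose promoter lay in an island are named. Members and lists were chosen with earlier results of these data known. A further gene of the family and a gene of the pathway lists are not reported here.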

Additional observations from a re-analysis of the deposited data

How the results depend on the processing

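The genes called depended on how islands were assigned to a window. The number of Irf genes past 1.5-fold by counts, 1 as reported (Irf1), was 0 with island parts inside the window alone, 0 over bases covered in both lists (an alternative chosen after seeing the data, in which the log2 ratio of Irf1 by window counts reversed to -0.052) and 0 at a threshold of 2-fold. It was 2 with 10 kb upstream (Irf1 and Irf4), 2 at the lowest threshold tried (Irf1 and Irf4), 2 with islands within 5 kb joined (Irf4 at -0.77 and Irf7 at 1.36, with Irf1 at 0.36), 3 without islands at promoters of other genes (Irf1 at 1.76, Irf7 at -1.22 and Irf9 at -2.17) and 4 over the gene body only (Irf3, Irf4, Irf8 and Irf9, with Irf1 at 0.41). Irf1 thus lost its call with islands joined, over the gene body, inside the window, over shared bases and at 2-fold, and Irf4 at 1.5-fold gained one with 10 kb upstream, islands joined or the gene body. By counts per kb it was 0 as reported and 2 without islands at other promoters (Irf1 at 0.74 and Irf9 at -0.82). Leaving out these islands removed unlike stretches in WT and dKO for Irf1, as described above, and also for Irf9 and Irf7. At Irf9, the WT island of 12.2 kb over the TSS was kept, whereas the dKO one of 31.4 kb was left out. At Irf7, a WT island of 18.2 kb was kept. The dKO island of 23.6 kb over that stretch was left out because it touched the promoter of Drd4. At promoters it was 0 as reported, 5 by counts with islands paired without merging, and at the lowest threshold 2 by counts and 1 by density per kb. The number of pathway genes past 1.5-fold was 14 of 67 by counts, 4 of 67 by counts per covered kb and 19 of 64 by counts over the gene body only. Shares over all protein-coding genes are given for the reported settings alone. The numbers of Irf genes under the alternatives thus have no background beside them and cannot be read as a trait of the family. Scaling by regions of both lists or by the median ratio shifted all log2 ratios by 0.07, which changed no count of genes by over 1.5 times but turned small ratios positive for Irf3 and Irf5 (window counts per kb, 0.02 to 0.03) and Irf8 (promoter region, 0.01 to 0.03). No paired analysis was possible because the deposited lists pool the replicates, and for the same reason no replicate could be left out. The spread between samples, which pooling hides, was not measured, so the precision of these ratios is known for counting error only.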
